A study of Homo sapiens with 12 samples.

Results

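A set of 8 genes that store, import, export or sense cellular iron was followed through a melanoma RNA-seq series: the ferritin subunits FTH1 and FTL, the ferritin autophagy receptor NCOA4, the transferrin receptor TFRC, the iron transporters SLC11A2 and SLC40A1, and the iron regulatory proteins ACO1 and IREB2. Each was taken by an exact match of its symbol, with ferritin pseudogenes left out, which gave 8 genes of 58307. Every symbol matched 1 row, so no choice between rows was needed. The cells were A375 and SK-MEL-28, established human malignant melanoma lines, and each line received Etoposide, a topoisomerase II poison, or Etoposide + Rapamycin. Rapamycin inhibits mTOR complex 1. The study used it to induce autophagy, and used starvation for this in other experiments. Each of the 4 groups had 3 libraries of polyA RNA, 12 in all, with 28190672 to 32499659 counts per library. All groups carried etoposide, no group without it was analysed here, and doses and times are not stated for these libraries. The study describes its 3 replicates per group as biological. In bulk RNA fewer cells of a type and less RNA per cell cannot be told apart.

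The melanocyte lineage genes SOX10 and S100B were well expressed, with group means of 291 to 475 and 58.5 to 98.2 normalized CPM (the CPM, or counts scaled to a common library size, after TMM normalization over the 12 libraries). The melanocyte regulator MITF had 13.5 to 28.3. The pigment cell genes PMEL, MLANA and DCT had at most 2.50 normalized CPM in any group, and TYR, which encodes tyrosinase, was at 0 in both groups with rapamycin and at most 0.0887 in the others. These lines therefore showed the lineage's regulators with little transcript of its pigment genes. The 7 lineage genes summed to 399 to 657 normalized CPM in A375 libraries with both drugs and 477 to 594 with etoposide. In SK-MEL-28 the sums were 293 to 525 and 424 to 547, so replicates of a group differed widely. Markers of other cell types, each list summed, had 48.1 to 72.3 normalized CPM for keratinocytes (mostly KRT10), 20.0 to 43.7 for fibroblasts, 0.750 to 2.52 for leukocytes and 0.168 to 1.299 for hepatocytes. Leukocyte sums were lower with rapamycin in both lines without overlap. Fibroblast sums were 34.95 to 36.90 with both drugs against 38.71 to 43.73 with etoposide in SK-MEL-28, without overlap, and 20.03 to 23.66 against 23.32 to 26.71 in A375, with overlap. The 4 erythroid markers summed to 0.523 to 0.872 with etoposide and 0.168 to 0.269 with both drugs in A375, and to 1.99 to 3.21 and 0.517 to 1.04 in SK-MEL-28, with HBB at 0 in every group. The part of these marker transcripts in the results was not tested.

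Cells take up iron bound to transferrin through TFRC, move it out of the endosome through SLC11A2 (also called DMT1), store it in ferritin shells built of FTH1 and FTL, and release it through SLC40A1 (ferroportin). When iron is needed, NCOA4 carries ferritin to the lysosome, a route known as ferritinophagy. The iron regulatory proteins ACO1 (IRP1) and IREB2 (IRP2) bind short hairpins, the iron-responsive elements, when iron is scarce: a hairpin ahead of the coding sequence holds back translation, as in ferritin, and hairpins behind it protect the transcript from decay, as in TFRC. RNA-seq measures the transcripts and says nothing of how much ferritin protein was made from them.

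The hairpins are shown because they are the element by which several of these genes are jointly controlled. A hairpin was sought on the sense strand of each gene's canonical transcript (GENCODE release 44, GRCh38) as a loop CAGTGN of 6 bases with 5 pairing bases on either side, G-T pairs allowed, and a C just ahead of the upstream stem. The 29-base windows below run 5′ to 3′ on the transcript strand, with the loop in capitals. Those of the ferritin subunits lie in the 5′UTR in exon 1, FTH1 at chr11:61967574-61967602 on the minus strand and FTL at chr19:48965335-48965363 on the plus strand, and that of SLC40A1 lies in the 5′UTR in exon 1 at chr2:189580661-189580689 on the minus strand.
FTH1: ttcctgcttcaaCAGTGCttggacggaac
FTL: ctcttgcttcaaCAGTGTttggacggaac
SLC40A1: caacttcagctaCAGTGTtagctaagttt

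TFRC held 4 such sites, all in the 3′UTR in exon 19 on the minus strand. In transcript order they lie at chr3:196050979-196051007, chr3:196050575-196050603, chr3:196050510-196050538 and chr3:196050463-196050491.
The first TFRC site: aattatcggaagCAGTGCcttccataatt
The second TFRC site: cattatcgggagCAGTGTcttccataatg
The third TFRC site: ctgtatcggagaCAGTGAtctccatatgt
The last TFRC site: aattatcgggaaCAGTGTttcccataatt

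The windows of FTH1 and FTL were identical at 26 of 29 bases. In all, 7 sites were found in 4 of the 8 genes, and no match was found in the canonical transcripts of NCOA4, IREB2, ACO1 or SLC11A2. Of 20020 canonical transcripts searched the same way, 1.31% held a site anywhere, 0.0949% held one in the 5′UTR and 0.609% held one in the 3′UTR. A match describes these letters only, and transcripts other than the canonical one were not searched.

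Per kilobase of canonical transcript, the order of the mean levels was the same in all 4 groups: FTH1, FTL, TFRC, NCOA4, IREB2, ACO1, SLC11A2 and SLC40A1. Ferritin transcripts stood far above the rest. In A375 with etoposide the level was 2899 normalized CPM per kb for FTH1, 909 for FTL, 79.6 for TFRC, 48.3 for NCOA4, 21.0 for IREB2, 12.1 for ACO1, 7.97 for SLC11A2 and 0.117 for SLC40A1. In SK-MEL-28 with etoposide the levels in the same order were 4060, 1963, 143, 51.4, 22.9, 7.27, 5.51 and 0.0805 normalized CPM per kb. Neighbours in this order had libraries that did not overlap in any group, with 1 transcript length assumed for each gene. FTH1 alone took 0.270% to 0.511% of a library's counts.

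**Figure D1:**
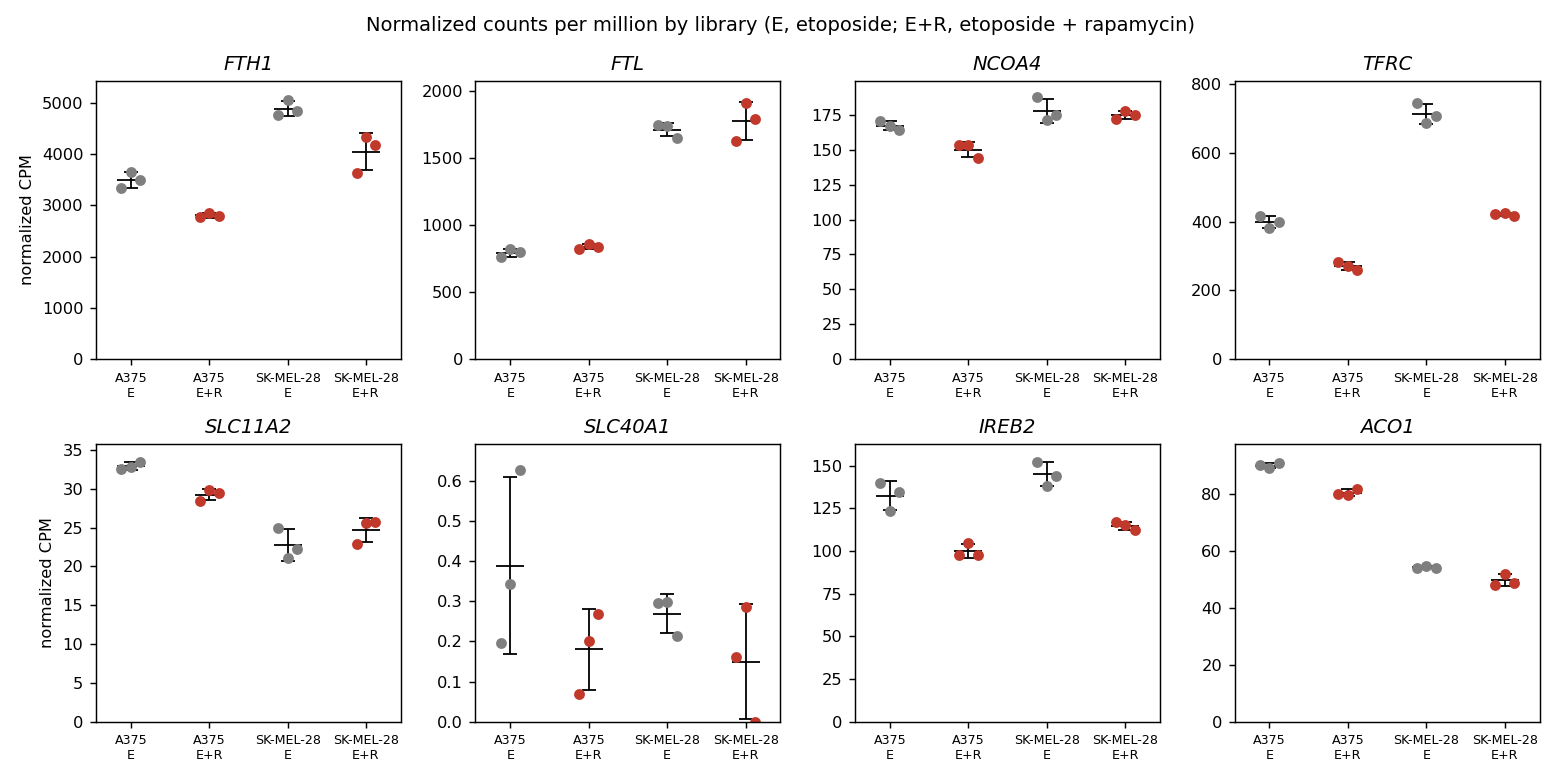
Normalized CPM (vertical axes from 0) of the 8 genes in each of the 12 libraries, by cell line and treatment. Points are libraries, grey with etoposide (E) and red with etoposide + rapamycin (E+R), and bars are the mean ± SD of 3. The red points of FTH1, TFRC and IREB2 lie below the grey ones in both lines, while those of FTL overlap with them.

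To see how rapamycin changed these transcripts in A375, the 3 libraries with both drugs were compared with the 3 with etoposide by edgeR's quasi-likelihood test, adjusted by Benjamini-Hochberg over the 18844 genes tested, and a gene was called at an adjusted p under 0.05. TFRC, IREB2, FTH1, ACO1 and NCOA4 fell, FTL and SLC11A2 were not called, and SLC40A1 was too low to be tested. Thus 5 of the 7 genes tested were called, all lower, where 28.1% of all genes tested were called, 14.3% higher and 13.8% lower. Leaving out 1 library gave 3 to 5 called genes, with 3 when A375 replicate 1 with both drugs was left out and NCOA4 and ACO1 were lost. The NCOA4 and ACO1 calls were each also lost without other single libraries, as given below. Those of TFRC, IREB2 and FTH1 held without any 1 library. The 7 genes had a median log2 fold change of -0.18 against -0.0051 over all genes tested. In SK-MEL-28, 3 of 7 were called, all lower (TFRC, IREB2 and FTH1), against 19.0% of all 18897 genes tested, 8.83% higher and 10.1% lower, with medians of -0.13 and 0.0053. The libraries of the treatments did not overlap for 6 of the 7 genes in A375 and for 4 of 7 in SK-MEL-28, where this held for 42.5% and 35.9% of all genes tested. With library totals in place of TMM scaling, the higher share of all called genes moved from 2691 of 5295 to 2213 of 5577 in A375 and from 1668 of 3582 to 1337 of 3716 in SK-MEL-28, and the directions of the 7 genes held.

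FTH1, the heavy subunit of ferritin, carries the ferroxidase site at which iron is oxidized for storage. In A375 its normalized CPM was 3331, 3641 and 3489 with etoposide and 2763, 2850 and 2791 with rapamycin added, so all 3 libraries with rapamycin lay below all 3 without. The fitted change was a fall by 19.9% (log2 fold change -0.32, SE 0.042, adjusted p = 0.000147 by edgeR, 95% interval -24.8% to -14.7%). In SK-MEL-28 the libraries had 4760, 5051 and 4842 with etoposide and 3637, 4335 and 4172 with both drugs, again without overlap, though the replicates with rapamycin spread more widely (SD 365 against 44.5 in A375). FTH1 fell by 17.3% in this line (log2 fold change -0.27, SE 0.053, adjusted p = 0.00286 by edgeR, 95% interval -23.6% to -10.5%).

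FTL, the light subunit, supports the growth of the iron core and lacks the ferroxidase site. Its normalized CPM in A375 was 760, 820 and 797 with etoposide against 817, 855 and 836 with rapamycin, and in SK-MEL-28 it was 1741, 1738 and 1650 against 1622, 1905 and 1790. The groups overlapped in both lines. The change was 5.29% in A375 (95% interval -1.45% to 12.5%, adjusted p = 0.237 by edgeR) and 3.42% in SK-MEL-28 (95% interval -4.32% to 11.8%, adjusted p = 0.573 by edgeR). Both intervals lie above those of FTH1 in the same line.

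Because the subunits are counted in the same library, their ratio does not depend on how libraries are scaled. The ratio of FTH1 to FTL counts in A375 was 4.38, 4.44 and 4.38 with etoposide and 3.38, 3.33 and 3.34 with rapamycin. In SK-MEL-28 it was 2.73, 2.91 and 2.94 with etoposide and 2.24, 2.28 and 2.33 with rapamycin. The mean ratio thus went from 4.40 ± 0.0348 to 3.35 ± 0.0278 in A375 and from 2.86 ± 0.109 to 2.28 ± 0.0450 in SK-MEL-28 (SD, n = 3), without overlap in either line. With 3 libraries against 3 the smallest two-sided p of an exact permutation test is 0.1, so it is given as a description. The ratio shows unequal change of the subunits and not that either stayed constant.

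**Figure D2:**
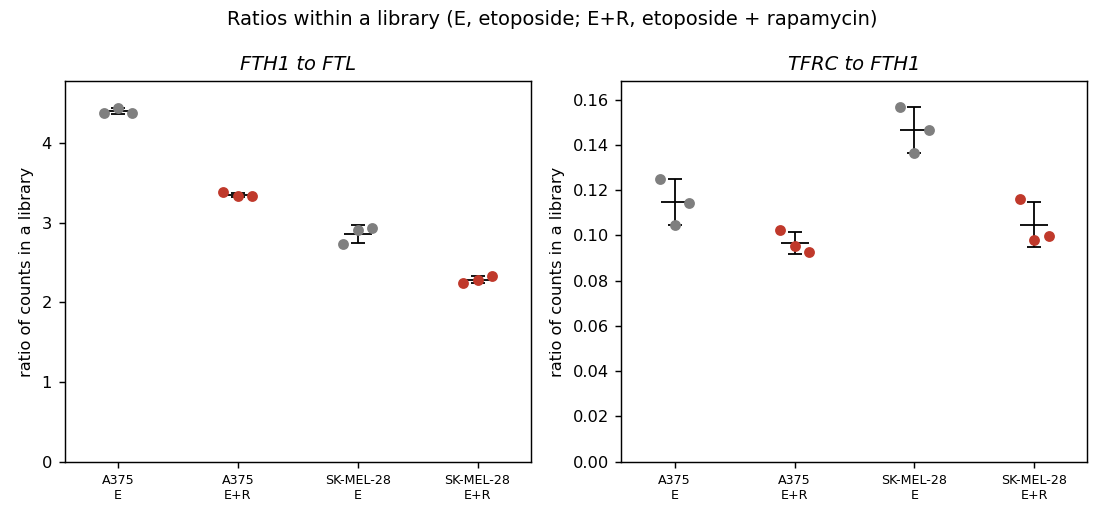
Ratio of FTH1 to FTL counts (left) and of TFRC to FTH1 counts (right) within each library, on axes from 0, with the mean ± SD of 3 libraries. Grey points are etoposide (E) and red points etoposide + rapamycin (E+R). All 3 red points lie below the grey ones in each line and for each ratio.

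Ferritin genes have many pseudogenes, and FTH1 overlaps BEST1, a chloride channel gene on the opposite strand (chr11:61959718-61965515). The 25 rows of FTH1 pseudogenes summed to 76 to 176 counts per library, at most 0.149% of FTH1, and the 14 rows of FTL pseudogenes summed to at most 0.0215% of FTL. BEST1 counts varied widely between replicates in A375, from 119 to 2113 with etoposide and from 52 to 1670 with both drugs. In SK-MEL-28 they ran from 210 to 4218 with etoposide but only from 3220 to 3432 with both drugs. BEST1 counts reached at most 2.86% of FTH1. Whether the authors counted by strand is not stated. With BEST1 counts added to FTH1, a choice made after seeing the data, its log2 fold change was -0.32 in A375 (adjusted p = 0.000118 by edgeR) and -0.26 in SK-MEL-28 (adjusted p = 0.00478 by edgeR).

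TFRC, the receptor that takes up transferrin-bound iron, showed the largest change of the 7 genes in both lines. In A375 its normalized CPM was 417, 381 and 399 with etoposide and 282, 272 and 259 with both drugs. SK-MEL-28 had 747, 689 and 709 with etoposide and 422, 425 and 416 with both. The libraries with rapamycin lay far below the others in each line. TFRC fell by 32.2% in A375 (log2 fold change -0.56, SE 0.049, adjusted p = 6.79e-06 by edgeR) and by 41.2% in SK-MEL-28 (log2 fold change -0.77, SE 0.045, adjusted p = 2.95e-07 by edgeR). Ranked by p, it stood at 27 of the 18897 genes tested in SK-MEL-28 and at 180 of 18844 in A375. It was the only one of the 7 genes to pass the study's threshold of a 1.5-fold change as well, and this only in SK-MEL-28, at 1.70-fold lower against 1.48-fold lower in A375. The A375 value lay close to the threshold. Its log2 fold change ran from -0.607 to -0.557 under other settings and from -0.592 to -0.528 without 1 library, and the largest of these falls exceed 1.5-fold. At that threshold 5.89% (A375) and 4.99% (SK-MEL-28) of all genes tested were called.

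The ratio of TFRC to FTH1 counts, which sets uptake against storage, was also lower with rapamycin. It was 0.125, 0.105 and 0.114 against 0.102, 0.0954 and 0.0926 in A375, and 0.157, 0.136 and 0.146 against 0.116, 0.0981 and 0.0996 in SK-MEL-28. In A375 the lowest library with etoposide lay just above the highest with rapamycin, and in SK-MEL-28 the gap was wider. TFRC transcript therefore fell by more than FTH1 transcript in these libraries, as a description without a test.

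SLC11A2, which carries ferrous iron across the endosomal and plasma membranes, did not pass the test in either line. Its normalized CPM in A375 was 32.5, 32.8 and 33.5 with etoposide and 28.5, 29.8 and 29.4 with both drugs, which did not overlap, and the log2 fold change was -0.18 (SE 0.067, adjusted p = 0.07 by edgeR). In SK-MEL-28 the libraries overlapped, at 25.0, 21.1 and 22.2 against 22.9, 25.6 and 25.7, with a log2 fold change of 0.12 (SE 0.089, adjusted p = 0.413 by edgeR). The A375 value passed when libraries were scaled by their totals (log2 fold change -0.22, adjusted p = 0.0262 by edgeR).

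SLC40A1, the sole known iron exporter of mammalian cells, was barely detected. It had 6, 10 and 18 counts in A375 with etoposide, 2, 6 and 8 with both drugs, 9, 9 and 7 in SK-MEL-28 with etoposide and 5, 8 and 0 with both. The groups overlapped in each line. It did not pass the count filter, and when every gene with 1 count was kept its log2 fold changes were -1.08 in A375 (SE 0.64, adjusted p = 0.418 by edgeR) and -0.85 in SK-MEL-28 (SE 0.84, adjusted p = 0.616 by edgeR). A change was not detectable at this depth.

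IREB2 encodes IRP2, which is degraded when iron is plentiful, and its transcript fell in both lines. In A375 it had 140, 123 and 134 normalized CPM with etoposide and 97.5, 105 and 97.8 with both drugs. In SK-MEL-28 it had 152, 138 and 144 against 117, 115 and 112. No library with rapamycin reached the range of those without. IREB2 fell by 24.7% in A375 (log2 fold change -0.41, SE 0.055, adjusted p = 0.000182 by edgeR) and by 21.0% in SK-MEL-28 (log2 fold change -0.34, SE 0.053, adjusted p = 0.00069 by edgeR).

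ACO1 encodes IRP1, which serves as the cytosolic aconitase while it holds an iron-sulfur cluster and binds hairpins without it. Its normalized CPM in A375 was 90.01, 88.91 and 90.62 with etoposide and 79.95, 79.44 and 81.79 with both drugs, a tight and separate pair of groups, and it fell by 10.7% (log2 fold change -0.16, SE 0.044, adjusted p = 0.0152 by edgeR). In SK-MEL-28 it was 53.8, 54.5 and 54.0 against 48.1, 52.0 and 48.7, again without overlap, but the log2 fold change of -0.13 did not pass the test (SE 0.054, adjusted p = 0.115 by edgeR). The A375 call was lost without replicate 1 or 2 of the libraries with rapamycin (adjusted p = 0.0652 and 0.0573 by edgeR) and without replicate 3 of those with etoposide (adjusted p = 0.0584 by edgeR). With library totals the SK-MEL-28 value passed (log2 fold change -0.16, adjusted p = 0.0486 by edgeR).

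NCOA4, the receptor that delivers ferritin to the lysosome, is the link of this group to autophagy. Its normalized CPM in A375 was 170, 167 and 164 with etoposide and 153, 153 and 144 with both drugs. These groups did not overlap, and NCOA4 fell by 10.4% (log2 fold change -0.16, SE 0.046, adjusted p = 0.02 by edgeR). In SK-MEL-28 the libraries were interleaved, at 188, 171 and 175 against 172, 178 and 175, with a log2 fold change of -0.029 (SE 0.052, adjusted p = 0.761 by edgeR, 95% interval -9.28% to 5.95%). The A375 call was marginal: it was lost without replicate 1 or 3 of the libraries with rapamycin (adjusted p = 0.0509 and 0.0975 by edgeR), without replicate 2 of those with etoposide (adjusted p = 0.0508) and with every gene of at least 1 count kept (adjusted p = 0.0501).

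**Figure D3:**
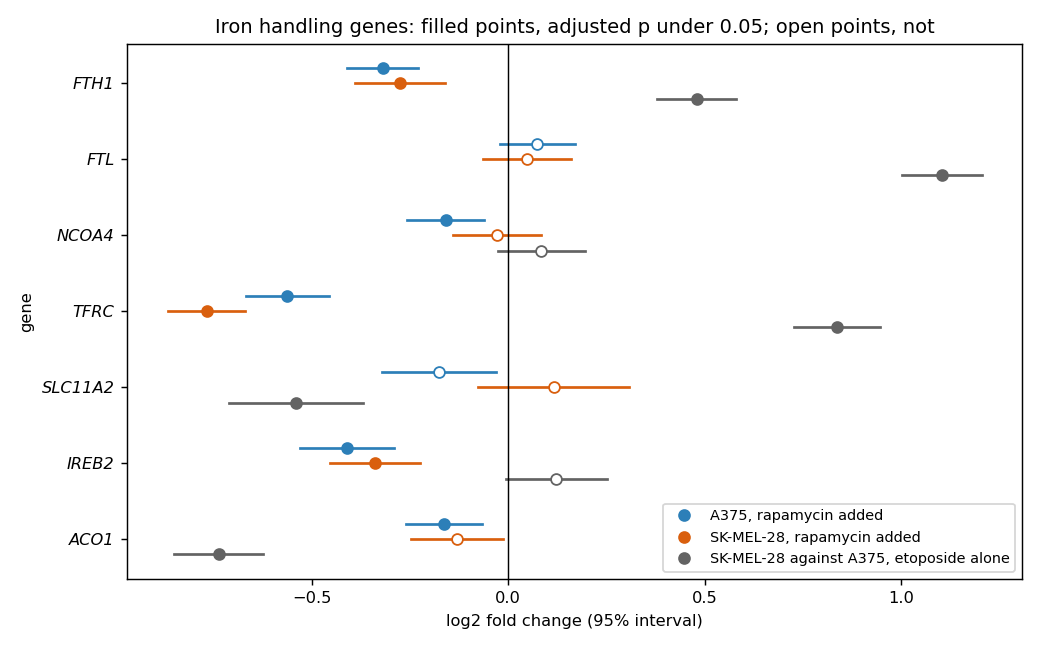
Log2 fold change of 7 genes with its 95% interval from edgeR's quasi-likelihood fit, for rapamycin added to etoposide in A375 (blue) and SK-MEL-28 (orange) and for SK-MEL-28 against A375 under etoposide alone (grey). Filled points had an adjusted p under 0.05. FTH1, TFRC and IREB2 are filled and left of 0 in both lines, and FTL is open and near 0 in both while its grey point stands at 1.10.

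Whether the lines responded differently was tested in a fit of all 12 libraries. None of the 7 genes was called, where 5.62% of the 20101 genes tested were (2.66% higher and 2.97% lower in SK-MEL-28 relative to A375), although 3 had an unadjusted p under 0.05. These were TFRC, whose change was lower in SK-MEL-28 by a log2 difference of -0.20 (SE 0.064, adjusted p = 0.0835 by edgeR), SLC11A2, whose change was higher in SK-MEL-28 by 0.30 (SE 0.10, adjusted p = 0.108 by edgeR), and NCOA4, higher by 0.14 (SE 0.064, adjusted p = 0.234 by edgeR). FTH1 had a difference of 0.053 with a 95% interval of -0.10 to 0.21, and IREB2 had 0.079 with an interval of -0.083 to 0.24, so moderate differences between the lines remain possible for both. DESeq2 called 1 gene, TFRC (log2 difference -0.22, adjusted p = 0.00968). TFRC also passed with at least 10 counts required in every library (-0.22, adjusted p = 0.0458 by edgeR) and without replicate 1 of A375 with etoposide (-0.24, adjusted p = 0.0332 by edgeR), and SLC11A2 passed without replicate 1 of SK-MEL-28 with etoposide (0.37, adjusted p = 0.039 by edgeR).

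Under etoposide alone the lines themselves differed in 5 of the 7 genes, 3 higher and 2 lower in SK-MEL-28, against 31.7% of the 19025 genes tested (15.2% higher and 16.5% lower), and these values share the etoposide libraries with the comparisons above. Ferritin and the transferrin receptor were higher in SK-MEL-28: FTL by 2.15-fold (log2 fold change 1.10, SE 0.047, adjusted p = 2.03e-09 by edgeR), TFRC by 1.79-fold (0.84, SE 0.050, adjusted p = 5.19e-08) and FTH1 by 1.40-fold (0.48, SE 0.047, adjusted p = 4.7e-06). ACO1 was 1.67-fold lower (-0.74, SE 0.053, adjusted p = 2.79e-07 by edgeR) and SLC11A2 was 1.45-fold lower (-0.54, SE 0.079, adjusted p = 0.000172). NCOA4 (0.084, SE 0.051, adjusted p = 0.242 by edgeR) and IREB2 (0.12, SE 0.059, adjusted p = 0.138) did not pass. The libraries did not overlap for 6 of 7 genes, where 44.7% of all genes tested did not, and IREB2 was the exception.

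Further iron genes were taken from a list of 76 in 7 roles, of which 70 had enough counts. In A375, 9 rose and 15 fell, or 34.3% called against 28.1% of all genes tested, and in SK-MEL-28, 6 rose and 10 fell, or 22.9% against 19.0%. Their median log2 fold changes were -0.021 and -0.037. The shares called pool both directions and lie somewhat above those over all genes, an excess that was not tested. More of the 70 genes fell than rose in each line. Over all genes tested, 14.3% rose and 13.8% fell in A375, and 8.83% rose and 10.1% fell in SK-MEL-28. In each line the share of the 70 genes that rose was thus below that of all genes, and the share that fell was above it. The list held 11 genes with a second gene name at the same locus, among them TF, LRP1, PCBP2, SKP1, CPOX and NFS1, and how the authors' counting divided reads there is not stated.

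Of 13 uptake genes, 2 rose and 4 fell in A375, while 4 fell and 0 rose in SK-MEL-28. The shares called were 46.2% and 30.8%, against 28.1% and 19.0% of all genes tested. By direction, 14.3% of all genes tested rose and 13.8% fell in A375, and 8.83% rose and 10.1% fell in SK-MEL-28. LCN2, a secreted protein that carries iron-bound siderophores, fell in both lines (log2 fold change -0.54, SE 0.046, adjusted p = 5.9e-06 in A375 and -0.70, SE 0.12, adjusted p = 0.00127 in SK-MEL-28, edgeR). Its level differed greatly between the lines, with a mean of 950.5 normalized CPM in A375 and 15.2 in SK-MEL-28 under etoposide. TF, which encodes transferrin, fell in both (-0.71, adjusted p = 0.0443 and -1.67, adjusted p = 0.000176, edgeR) from low means of 1.99 and 5.68 normalized CPM. MELTF, or melanotransferrin, an iron-binding surface protein of melanoma cells, had the highest mean of the role over all 12 libraries and rose in A375 (0.15, SE 0.052, adjusted p = 0.0473), with 0.19 in SK-MEL-28 (SE 0.063, adjusted p = 0.0529). LRP1, a receptor for heme-hemopexin, fell in SK-MEL-28 (-0.33, SE 0.071, adjusted p = 0.00566) and had -0.020 in A375 (adjusted p = 0.915).

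Of the chaperones that hand iron to ferritin, 1 was called higher in A375 and 2 in SK-MEL-28. PCBP1 rose in both lines (log2 fold change 0.16, SE 0.042, adjusted p = 0.0142 in A375 and 0.24, SE 0.048, adjusted p = 0.00383 in SK-MEL-28, edgeR), and PCBP2 rose in SK-MEL-28 (0.23, adjusted p = 0.00265) with 0.095 in A375 (adjusted p = 0.174). They were the 2 genes tested of 3 in this role. The shares called, 50% and 100% against 28.1% and 19.0% of all genes tested, thus rest on 2 genes. Of the 5 export genes, 1 rose in A375, BMP6, a ligand that induces hepcidin in liver (0.59, SE 0.12, adjusted p = 0.00386, with 0.88, SE 0.30 and adjusted p = 0.0553 in SK-MEL-28), and 1 fell in SK-MEL-28, ABCG2, an efflux pump for porphyrins and drugs that was named after its values were seen (-0.99, SE 0.18, adjusted p = 0.00242, with -0.33, SE 0.20 and adjusted p = 0.256 in A375). The test of the difference between the lines called neither (adjusted p = 0.613 and 0.154 by edgeR). FLVCR1, a heme exporter, had -0.072 and -0.040 and was called in neither line. The share of the 5 export genes called was 20% in each line, against 28.1% (A375) and 19.0% (SK-MEL-28) of all genes tested.

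Among 7 genes of iron regulatory protein turnover or with iron-responsive transcripts, 1 rose and 3 fell in A375, and 1 rose and 1 fell in SK-MEL-28. The shares called were 57.1% and 28.6%, against 28.1% and 19.0% of all genes tested. For the 4 ferritinophagy partners they were 25% and 0%. EPAS1, or HIF2A, an oxygen-sensing factor, fell in both lines (log2 fold change -0.85, SE 0.12, adjusted p = 0.000281 and -1.39, SE 0.12, adjusted p = 8.2e-06, edgeR), at a mean of 9.98 normalized CPM over all libraries. FBXL5, the iron-sensing subunit of the ligase that degrades IRP2, fell in A375 (-0.22, SE 0.058, adjusted p = 0.0144) and rose in SK-MEL-28 (0.29, SE 0.053, adjusted p = 0.0023). It was the only further iron gene called in opposite directions. SKP1, another subunit of that ligase, fell in A375 (-0.32, adjusted p = 0.000726), with -0.075 in SK-MEL-28 (adjusted p = 0.319), and CDC42BPA, a kinase, was called in neither. Of the 4 ferritinophagy partners only TAX1BP1, an autophagy receptor that works with NCOA4, was called, lower in A375 (-0.20, SE 0.045, adjusted p = 0.00493, against 0.0069 and adjusted p = 0.949 in SK-MEL-28), while HERC2, which marks NCOA4 for degradation, had 0.13 (adjusted p = 0.202) and -0.12 (adjusted p = 0.144).

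Of 25 genes of mitochondrial iron and iron-sulfur clusters, 3 rose and 4 fell in A375, and 3 rose and 2 fell in SK-MEL-28. The shares called were 28% and 20%, against 28.1% and 19.0% of all genes tested. The same 3 rose in both lines: LYRM4, a partner of the cysteine desulfurase (log2 fold change 0.44, adjusted p = 0.00317 and 0.52, adjusted p = 0.00415, edgeR), SLC25A37, or mitoferrin, which brings iron into mitochondria (0.36, adjusted p = 0.000223 and 0.35, adjusted p = 0.000357), and NUBP2, a scaffold of cytosolic cluster assembly (0.40, adjusted p = 0.000634 and 0.21, adjusted p = 0.0431). ISCA1, a late-acting assembly factor, fell in both (-0.39, adjusted p = 0.0112 and -0.39, adjusted p = 0.000435), as did NFS1, the desulfurase (-0.33, adjusted p = 0.000683 and -0.17, adjusted p = 0.0485). HSPA9, the mitochondrial chaperone of cluster transfer, fell in A375 (-0.23, adjusted p = 0.00117), with -0.13 in SK-MEL-28 (adjusted p = 0.0946), and CIAO1 was called in neither. Of 14 heme genes, A375 had 1 that rose and 3 that fell (28.6% called), and SK-MEL-28 had 2 that fell (14.3%). CPOX, which makes protoporphyrinogen, fell in both (-0.21, adjusted p = 0.0118 and -0.20, adjusted p = 0.0135), ALAS1, the first enzyme of heme synthesis, fell in A375 (-0.27, adjusted p = 0.00101, against -0.12 and adjusted p = 0.129), and UROD was called in neither. Across the roles, 4 of the 70 genes (5.71%) rose in both lines, 6 (8.57%) fell in both and 1 (1.43%) was called in opposite directions, where of the 18140 genes tested in both lines 5.26% rose in both, 5.57% fell in both and 0.436% went in opposite directions.

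**Figure D4:**
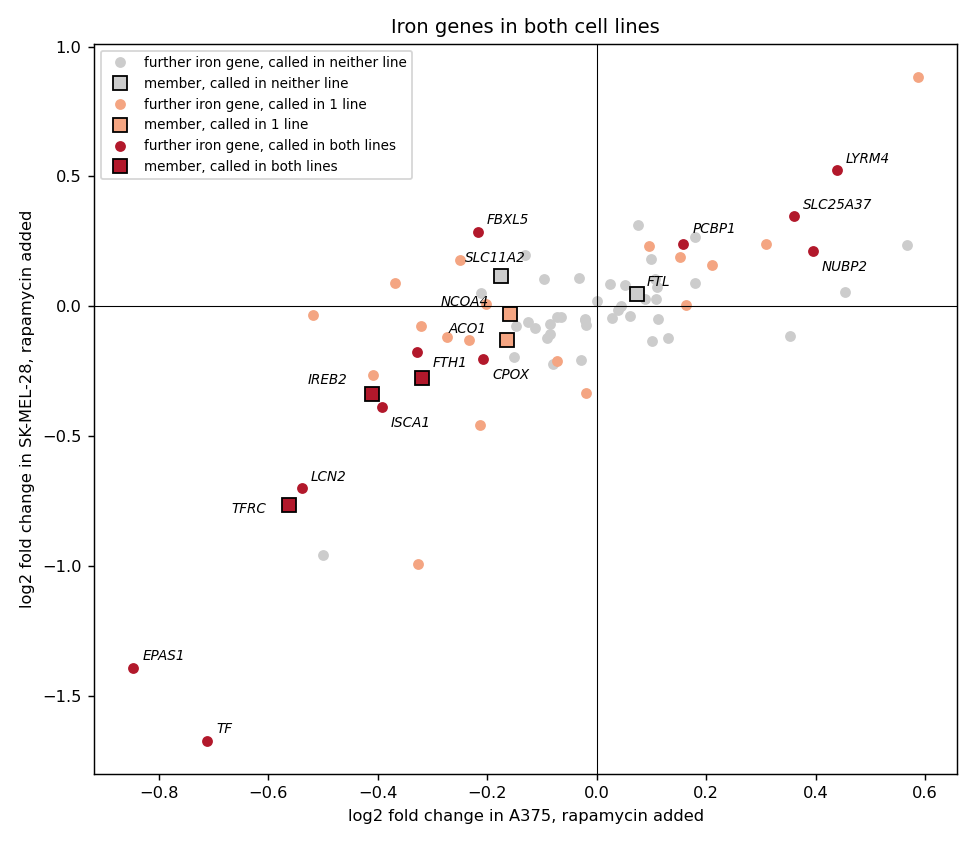
Log2 fold change with rapamycin in A375 (horizontal) and SK-MEL-28 (vertical) of the further iron genes tested in both lines (circles) and of 7 of the 8 genes followed here (squares, "member" in the key). Colour gives the number of lines with an adjusted p under 0.05 by edgeR. FTH1, IREB2 and TFRC sit at the lower left with LCN2 and ISCA1, EPAS1 and TF lie lowest, and FBXL5 is the dark point at the upper left.

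The genes whose levels were most like those of FTH1, FTL and TFRC were sought by the Pearson correlation of log2 CPM over the 12 libraries, after each line's mean was subtracted, among 12713 genes with a mean of at least 100 counts. Nearest to TFRC were COPG1, a coat protein of Golgi vesicles (r = 0.995), AK4, a mitochondrial adenylate kinase (0.993), and HSPA5, the endoplasmic reticulum chaperone BiP (0.990). Nearest to FTH1 were DCAF13 (0.972), TES (0.967) and CHST1 (0.964). For FTL, which was not called in either line, the nearest were RRP8 (0.902), TM4SF1 (0.902) and LY6G5B (0.882). All these correlations are over the same libraries, which share treatment and depth, and they are given as a description.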

How the data were processed

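The authors sequenced polyA libraries, mapped clean reads to GRCh38 with HISAT2, estimated expression with StringTie from an Ensembl annotation and deposited raw counts per gene and library, without normalization or pooling. How coverage became counts, and whether strand was used, is not stated. The table had 58312 rows, and 5 without a gene name were dropped. Since the counts derive from coverage, counting error was not computed, and p-values measure the spread between libraries, which the study describes as biological replicates.

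Here, edgeR 4.0.16 in R 4.3.3 (filterByExpr with a minimum count of 10, TMM, glmQLFit, glmQLFTest) compared treatments within each line, the lines under etoposide, and the difference of responses over 12 libraries. Calls had an adjusted p under 0.05 (Benjamini-Hochberg over all genes tested). Standard errors were obtained from the log2 fold change and the F statistic. The members, gene lists and tests were chosen with earlier results of these data known. Named genes were all 8 members, the 2 highest further iron genes per role, up to 5 per direction called in both lines, any called in opposite directions, and the 3 nearest by correlation. NFS1, ABCG2, CYBRD1, CISD2 and HMOX1 fall outside this rule and were chosen after their values were seen. Alternatives were DESeq2 1.42.0, its size factors in edgeR, scaling by library totals, a loose filter (1 count in any library) and a strict filter (10 in every library), 1 fit of all libraries, a replicate block, a fold change threshold of 1.5 and a test against it, pseudogenes or rows of the same symbol summed, BEST1 added to FTH1, and each library left out. Scripts were tested on simulated counts.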

Additional observations from a re-analysis of the deposited data

Results flagged for a closer look

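By edgeR's test of the difference itself, A375 and SK-MEL-28 responded unequally to rapamycin in 5 of the 70 further iron genes tested (7.14%, against 5.62% of all genes tested), each higher in SK-MEL-28 relative to A375. The count was 2 without A375 replicate 2 with both drugs, or without replicate 2 or 3 of either line with etoposide, and 3 without A375 replicate 1 or 3 or SK-MEL-28 replicate 2 with both drugs. FBXL5 had a log2 difference of 0.51 (SE 0.080, adjusted p = 0.00133), with -0.22 in A375 and 0.29 in SK-MEL-28. HMOX1, the heme-degrading enzyme, had a difference of 0.49 (SE 0.092, adjusted p = 0.00487), with -0.52 in A375 (adjusted p = 0.000243) and -0.034 in SK-MEL-28 (adjusted p = 0.801). CISD2, an iron-sulfur protein of the endoplasmic reticulum, had a difference of 0.46 (SE 0.13, adjusted p = 0.0415), with -0.37 in A375 (adjusted p = 0.0136) and 0.088 in SK-MEL-28 (adjusted p = 0.519). CYBRD1, a ferric reductase, had a difference of 0.43 (SE 0.10, adjusted p = 0.0221), with -0.25 in A375 (adjusted p = 0.0324) and 0.18 in SK-MEL-28 (adjusted p = 0.12). SKP1 had a difference of 0.25 (SE 0.068, adjusted p = 0.0388), with -0.32 and -0.075, and shares its locus with a second gene name.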

How the results depend on the processing

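Of 511 values of the 7 genes under alternatives, 484 kept direction and side of the threshold, 17 lost a call, 6 gained one and 4 changed sign. The calls of FTH1, TFRC and IREB2 in both lines held under every alternative run apart from the pair that require a 1.5-fold change, which kept only TFRC in SK-MEL-28. The sign changes were of small values: FTL in SK-MEL-28 was -0.0044 without the second library with both drugs (range -0.0044 to 0.11 without 1 library), NCOA4 in SK-MEL-28 was 0.011 without the first with etoposide (range -0.058 to 0.011), and the FTL difference was 0.0020 without the second A375 library with both drugs and 0.044 without the first SK-MEL-28 one (range -0.072 to 0.044). Of the 8 genes, the further iron genes and all genes, a fold change over 1.5 left 0, 3 and 1109 calls in A375, 1, 4 and 943 in SK-MEL-28 and 3, 9 and 2477 between lines under etoposide. For the difference it left 0 further iron genes and 326 genes. The test against that fold left 0, 0 and 168 in A375, 1, 2 and 166 in SK-MEL-28, 3, 6 and 1070 between lines, and for the difference 0 further iron genes and 14 genes, as these rules require larger changes. For the difference, DESeq2 called 1 of the 8 genes and 1699 genes, a filter of 1 count 2 further iron genes and 658 genes, and a filter of 10 counts in every library 1 of the 8 genes. The cause was not tested. Leaving out 1 library gave 3 to 5 of the 8 genes in A375 (3 without the first with both drugs) and 0 to 1 for the difference, with 2 to 7 further iron genes and 594 to 1315 genes (594 without A375 replicate 3 with both drugs, 616 and 642 without SK-MEL-28 replicate 2 and A375 replicate 3 with etoposide, 705 and 710 without SK-MEL-28 replicate 3 with etoposide and replicate 2 with both drugs). Without 1 library the calls ranged from 3886 to 5231 genes in A375, 2432 to 3103 in SK-MEL-28 and 4885 to 5535 between lines. The labels do not say whether equal replicate numbers mark paired samples. Libraries of equal number had correlations of -0.0297 to 0.0209, so the values showed no sign of pairing, which does not settle how the cultures were handled. With a replicate block the difference had 3 further iron genes and 620 genes, and ACO1 in A375 had an adjusted p of 0.0502. SLC40A1 had too few counts for any call at this depth.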
